A study of Mus musculus with 2 samples.

Results

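The E-protein genes Tcf3, Tcf4 and Tcf12 and the genes of their inhibitors, Id1, Id2, Id3 and Id4, were examined in the RNA-seq libraries of differentiated female germline stem cells (FGSCs). They were taken by symbol, as the whole E-protein and Id families of the mouse, and made up 7 of the 55176 genes with an ID in the count files. The data comprised 2 libraries of 1 group, replicates 1 and 2. The CD-1 FGSCs had been induced for 3 days with 10 ng/mL BMP4 and 10 µM retinoic acid (RA), without GDNF, EGF and LIF, over cultured granulosa cells, which in the follicle surround the oocyte. Both libraries share every one of these conditions, so no value below is an effect of BMP4 or RA. The FGSCs had been grown on STO feeder cells, a mouse embryonic fibroblast line, before induction. Each library was made from a handful of cells by Smart-seq, in which poly(A) RNA is copied to cDNA and amplified by PCR. The labels do not say whether the replicates came from separate cultures.

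E-proteins are the class I basic helix-loop-helix (bHLH) transcription factors. They bind DNA as dimers at the E-box, with each other or with tissue-restricted class II bHLH partners such as FIGLA and SOHLH1 of the oocyte. Id proteins carry the helix-loop-helix but lack the basic region, so that a dimer of an Id with an E-protein does not bind DNA. Id genes are classical targets of BMP signalling through SMAD1, SMAD5 and SMAD4. The gene Tcf4 codes for the E-protein also called E2-2, whereas the HMG-box factor of Wnt signalling that is often called TCF4 is the product of another gene, Tcf7l2. Both are therefore given here.

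To show the sequence context in which E-boxes and the GC-rich SMAD element lie at these genes, the bases upstream of their RefSeq starts are printed as far as no annotated exon covers them. The bases were read 5′ to 3′ on the strand of the gene from RefSeq (GRCm38.p6), and capitals mark either of 2 motifs. CANNTG is the E-box, and GGCGCC is a motif found in BMP-responsive elements; both patterns read the same on either strand, and no copies of the 2 overlapped here. Among 32851 RefSeq promoter windows, 66.2% held CANNTG and 9.59% held GGCGCC in their 250 upstream bases.
Tcf3 upstream stretch, chr10:80433648-80433885 (minus strand): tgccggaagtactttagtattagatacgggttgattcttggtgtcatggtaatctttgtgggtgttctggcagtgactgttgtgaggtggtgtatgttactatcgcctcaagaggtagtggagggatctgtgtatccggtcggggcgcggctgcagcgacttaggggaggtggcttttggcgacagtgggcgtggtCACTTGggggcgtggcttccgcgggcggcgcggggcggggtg
Tcf12 upstream stretch, chr9:72111872-72112069 (minus strand): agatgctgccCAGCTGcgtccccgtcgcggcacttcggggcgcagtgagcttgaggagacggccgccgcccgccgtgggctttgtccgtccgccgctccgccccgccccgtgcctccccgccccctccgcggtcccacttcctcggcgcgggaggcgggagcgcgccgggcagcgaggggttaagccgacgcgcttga
Tcf12 upstream stretch of another start, chr9:72111203-72111451 (minus strand): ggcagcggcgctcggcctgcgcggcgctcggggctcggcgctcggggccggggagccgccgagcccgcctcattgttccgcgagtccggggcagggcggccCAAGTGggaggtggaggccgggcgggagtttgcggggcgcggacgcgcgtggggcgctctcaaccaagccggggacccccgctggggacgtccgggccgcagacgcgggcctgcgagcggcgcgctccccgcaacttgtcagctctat
Id2 upstream stretch, chr12:25096254-25096342 (minus strand): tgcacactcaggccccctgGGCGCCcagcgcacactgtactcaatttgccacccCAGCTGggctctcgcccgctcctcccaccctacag
Id4 upstream stretch, chr13:48260866-48261115 (plus strand): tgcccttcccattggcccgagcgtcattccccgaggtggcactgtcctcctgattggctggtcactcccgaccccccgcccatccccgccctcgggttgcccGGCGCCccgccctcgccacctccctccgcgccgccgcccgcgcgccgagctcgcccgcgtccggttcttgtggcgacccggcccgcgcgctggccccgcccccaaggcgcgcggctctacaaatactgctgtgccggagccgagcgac
Tcf3 held 1 CANNTG, each of the 2 Tcf12 stretches held 1, Id2 held 1 CANNTG and 1 GGCGCC, and Id4 held 1 GGCGCC. The Id2 stretch lies in the first intron of a longer Id2 transcript. The window of Id3 and that of one more Tcf12 start lie wholly in annotated exons and are not printed, and those of Id1 and Tcf4 are not printed either. Each is a match of letters, not a shown binding site.

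The libraries differed widely in depth, and this sets what can be said of every gene. Replicate 1 held 1517151 counts and replicate 2 held 12442, so that 1 count was worth 0.659 counts per 1000000 counts (CPM) in replicate 1 and 80.4 CPM in replicate 2. A level of 3 counts, the smallest taken here as shown, was 1.98 CPM and 241 CPM. Retained-intron transcripts, which keep an intron and are not translated as annotated, held 1.51% of all counts in replicate 1 and 14.6% in replicate 2. A count of 0 is given with the level of 3 counts as its upper limit, which is the one-sided 95% Poisson limit. The other intervals below are two-sided 95% intervals that cover counting error only, exact Poisson for levels and Wilson for shares, since PCR copies are not independent molecules.

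The files list Ensembl transcript IDs and protein accessions without gene names. The gene of an accession was inferred from its place between Ensembl transcripts that are listed in genome order. When 80% of the Ensembl IDs were hidden as a check, 36.0% of the hidden IDs could be placed in 1 gene, and 99.5% of those were placed in the right gene. The hidden IDs were not accessions, so the accuracy for accessions themselves was not measured. The values of Id2, Id3 and Id4 rest wholly on accessions placed in this way, whereas those of Tcf4 and Tcf12 rest on both kinds of ID. Of 10320 Ensembl IDs with no exonic base outside other transcripts, 3 were counted in replicate 1 and 0 in replicate 2, against 6576 and 2158 of the 64872 IDs with such bases. How reads on shared bases were treated is not given in the sources used here, and a gene at 0 can have been transcribed.

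In replicate 1, transcripts of Tcf4, Tcf12, Id2 and Id3 were detected, those of Tcf3 and Id1 had no count, and Id4 had 1 count. Thus 4 of the 7 members reached 3 counts, 2 of 3 E-proteins and 2 of 4 Id genes. Of the 46753 genes without an ambiguous ID, 14.7% reached 3 counts, and of the 13686 protein-coding ones 36.1% did. The median of the 7 members was 42 counts, against a median of 0 in both backgrounds. In replicate 2, 0 of 7 members reached 3 counts and only Tcf4 had any, with 1 count, where 2.00% of all genes compared and 4.21% of the protein-coding ones reached 3 counts. The 844 member counts of replicate 1 would be 6.92 counts at the depth of replicate 2. Together the members had 556 CPM (519 to 595) in replicate 1 and 80.4 CPM (2.03 to 448) in replicate 2, intervals that do not overlap. The value of replicate 2 rests on 1 count, and neither family alone parted the libraries. The E-proteins had 410 CPM (378 to 444) against 80.4 CPM (2.03 to 448). The Id genes had 146 CPM (128 to 167) against 0, for which the limit is 241 CPM. For comparison, of 2227 protein-coding genes with 42 to 414 counts in replicate 1, the range of the 4 detected members, 22.2% had any count in replicate 2. At the depth of replicate 2, 42 counts would be 0.344 counts and 414 would be 3.40. What part of the 22.2% is due to depth was not tested.

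**Figure D1:**
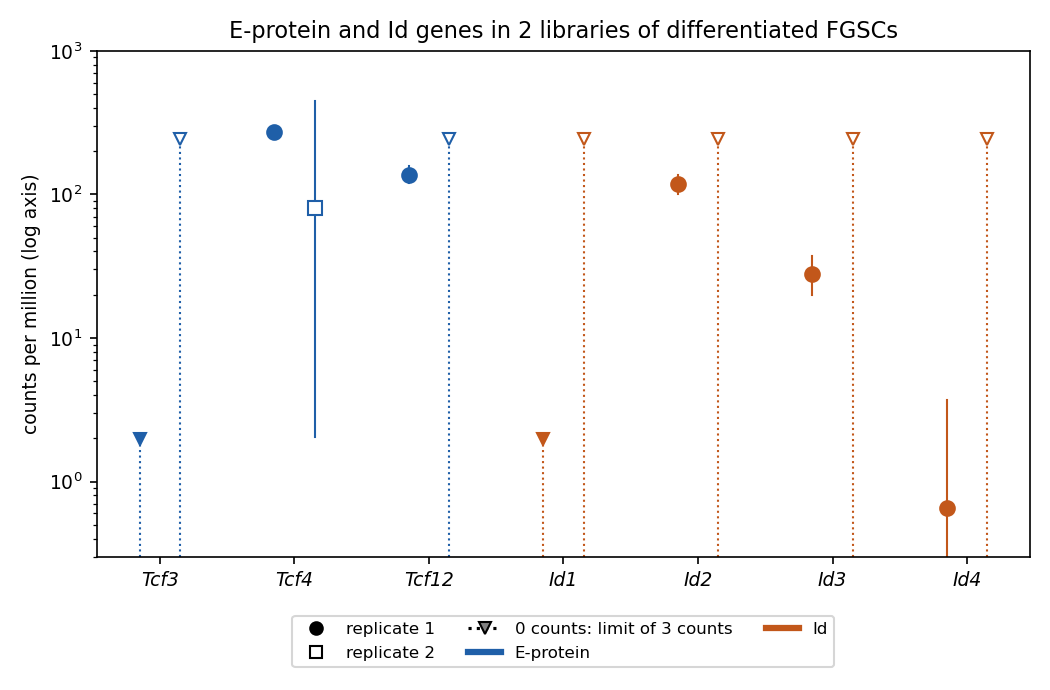
CPM of each E-protein gene (blue) and Id gene (orange) on a log axis, with filled circles for replicate 1, open squares for replicate 2, vertical lines for 95% Poisson intervals of counting error and triangles for the level of 3 counts where a gene had 0 counts. Tcf4, Tcf12, Id2 and Id3 stand between 27.7 and 273 CPM in replicate 1, while in replicate 2 the limit of 241 CPM lies above the replicate 1 level of every member other than Tcf4.

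Tcf4, which codes for E2-2, had the most counts of the family. The gene lies at chr18:69343356-69689079 on the plus strand (GRCm38) and has 62 annotated transcripts, listed under 14 Ensembl IDs and 39 accessions. It had 414 counts in replicate 1, or 273 CPM (247 to 300), and 1 count in replicate 2, or 80.4 CPM (2.03 to 448). By library totals the intervals of the libraries overlap, and the share in replicate 1 would give 3.40 counts at the depth of replicate 2. One accession, Q60722, held 312 of the 414 counts and also the only count of replicate 2. The Ensembl IDs of the gene held 80 counts, of which 61 were on a single retained-intron transcript and 17 on a noncoding processed transcript. Another accession, E9Q8G4, held 21 counts, and 3 further IDs had 1 count each, so that 7 of its 53 IDs had any count.

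Tcf12, which codes for the E-protein HEB, was next among the E-proteins. It lies at chr9:71842688-72111871 on the minus strand, with 21 transcripts under 4 Ensembl IDs and 14 accessions. It had 208 counts in replicate 1, or 137 CPM (119 to 157), and 0 in replicate 2, where 1.71 counts would be the same share. Most of these counts were on Ensembl IDs of retained-intron transcripts. The largest part, 90 counts, fell on a transcript at chr9:72106139-72110481, near the 5′ end of the gene, while another had 64 and the last had 6. The only coding ID with a count was the accession Q61286, with 48.

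Tcf3, which codes for the E12 and E47 proteins, had 0 counts on all 13 of its IDs in both libraries. The gene lies at chr10:80409514-80433647 on the minus strand. With 3 counts as the limit, a count of 0 allows up to 1.98 CPM in replicate 1 and 241 CPM in replicate 2. Of its 4039 exonic bases 847, or 20.97%, belong to a single transcript only, the lowest share among the E-proteins, against 60.3% in Tcf4 and 66.3% in Tcf12. Absence of Tcf3 transcripts is not shown by these counts, and the part of the shared bases in its 0 was not tested.

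The retained-intron share separated the detected E-proteins. In replicate 1, such transcripts held 76.9% of the Tcf12 counts (70.7% to 82.1%) and 14.98% of the Tcf4 counts (11.9% to 18.7%), against 1.51% of all counts. Their length has to be set beside this, as they hold 72.9% of the bases found in 1 transcript only in Tcf12 and 64.96% in Tcf4. Per kilobase of such bases, Tcf12 had 21.3 counts on retained-intron transcripts (18.2 to 24.9) and 17.3 on coding ones (12.8 to 23.0), and these intervals overlap. Tcf4 had 5.78 counts per kilobase on retained-intron transcripts (4.43 to 7.41) and 67.2 on coding ones (60.1 to 74.8). The counted accessions of Tcf4 had 4 candidate transcripts each and that of Tcf12 had 1, and whether they hold reads on bases that coding transcripts share was not tested. With all bases found only in coding transcripts as the length, the coding values were 15.9 counts per kilobase in Tcf12 (11.7 to 21.1) and 31.3 in Tcf4 (28.05 to 34.86), so that the coding level stayed above the retained-intron level in Tcf4 and did not exceed it in Tcf12. Counts from unspliced RNA or genomic DNA and counts from retained-intron transcripts cannot be told apart in these files.

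**Figure D2:**
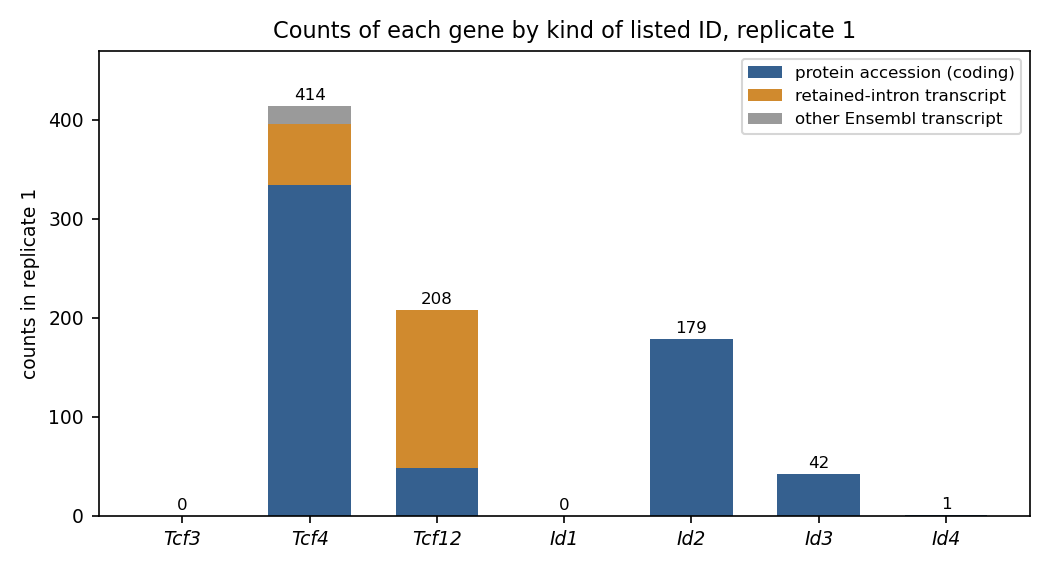
Counts of each gene in replicate 1, stacked by the kind of listed ID: protein accessions of coding transcripts (blue), retained-intron transcripts (orange) and other Ensembl transcripts (grey), with the total above each bar. In Tcf12 160 of 208 counts are on retained-intron transcripts, in Tcf4 62 of 414, and in Id2, Id3 and Id4 all counts are on accessions.

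Id2 was the leading inhibitor gene. It lies at chr12:25093799-25097140 on the minus strand and is listed under 2 accessions. It had 179 counts in replicate 1, or 118 CPM (101 to 137), all on the accession Q545T4, and 0 counts in replicate 2. The same share of the library total would give 1.47 counts at the depth of replicate 2. By library totals, the 0 there thus does not set the libraries apart. A pseudogene, Gm6175, shares 1.60% of the 31-base stretches of Id2.

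Id3 followed with 42 counts in replicate 1, or 27.7 CPM (19.95 to 37.42), and 0 in replicate 2, where the same share is 0.344 counts. It lies at chr4:136143497-136145755 on the plus strand, and all counts were on the accession Q545W1, while its retained-intron and processed transcripts had 0. No stretch of 31 bases in Id3 was shared with another gene.

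Id4, at chr13:48261228-48266026 on the plus strand, had 1 count in replicate 1, or 0.659 CPM (0.0167 to 3.67), and 0 in replicate 2. Of its 3849 exonic bases 3678 belong to 1 transcript only. It overlaps 2 genes of the opposite strand, Gm49291 and A330033J07Rik, which had 0 counts in both libraries. Id1, at chr2:152736251-152737410 on the plus strand, had 0 counts in both libraries on its accession Q6GTZ3 and on 1 further accession that could be its own or another gene's. Of its 1160 exonic bases 226, or 19.5%, belong to a single transcript, and with 3 counts as the limit its 0 allows up to 1.98 CPM in replicate 1. Id1 is the member most often used as a readout of BMP signalling, and these files do not show whether it was transcribed.

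To compare levels between genes, counts were divided by the kilobases of all annotated exons and by the library total in units of 1000000 counts (FPKM). On this scale the order changed, because the Id genes are short. In replicate 1 Id2 had 48.4 FPKM (41.6 to 56.0), Id3 15.5 (11.1 to 20.9), Tcf4 9.97 (9.03 to 11.0) and Tcf12 8.83 (7.67 to 10.1). Id2 stood above the others beyond counting error, Tcf4 and Tcf12 did not differ beyond it, and the intervals of Id3 and Tcf4 only just parted. Id4 had 0.171 FPKM (0.00434 to 0.954), and 3 counts would be 0.490 FPKM for Tcf3 and 1.70 for Id1. In replicate 2 the single count of Tcf4 gave 2.94 FPKM (0.0743 to 16.4). Set against the genes compared, 97.9% had a lower FPKM than Id2, 94.96% than Id3, 93.5% than Tcf4 and 93.1% than Tcf12 in replicate 1. Against protein-coding genes these shares were 95.1%, 88.4%, 85.2% and 84.4%.

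The E-proteins held 622 of the 844 member counts in replicate 1, which is 73.7% (70.6% to 76.6%), but 22.7% of the summed FPKM (20.1% to 25.5%). Summed over each family, the Id genes had 3.41 times the FPKM of the E-proteins. Replicate 2, with 1 E-protein count and 0 Id counts, gives no ratio. The level of Tcf4 and Tcf12 depended on the length used, since their long noncoding transcripts add exonic bases. Per kilobase of the longest coding transcript, Tcf4 had 31.8 (28.8 to 35.03), Tcf12 21.8 (18.9 to 24.9), Id2 59.9 (51.5 to 69.4) and Id3 21.7 (15.6 to 29.3), and the E-protein share rose to 39.6%. Id2 remained above the other members with each length, whereas the order of Id3 and Tcf4 turned. Without the counts of retained-intron IDs Tcf12 had 2.04 FPKM and the E-protein share was 14.1%. The bases of those transcripts stayed in the length, which lowers the Tcf12 value.

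**Figure D3:**
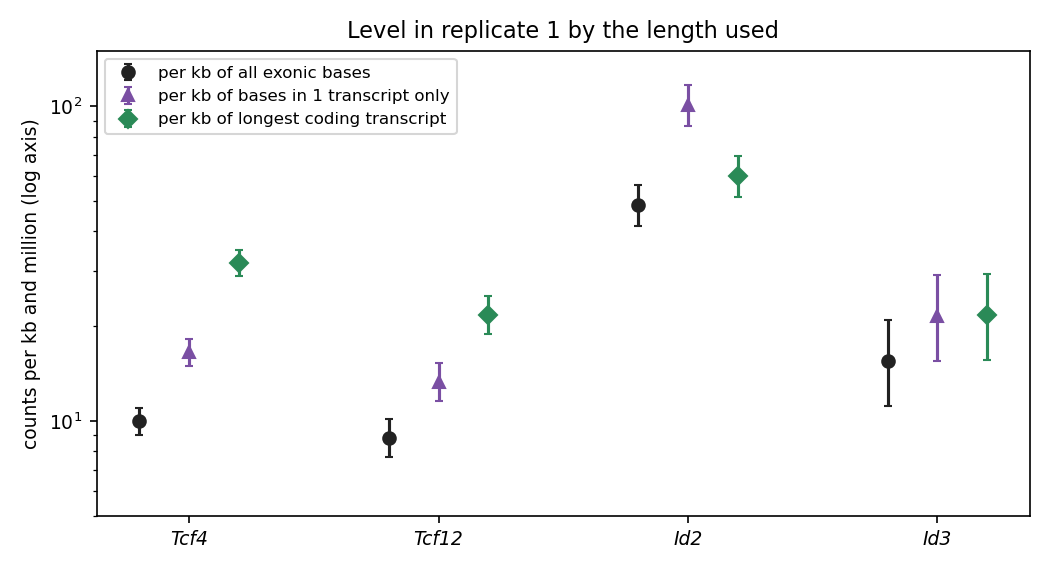
Level of the 4 detected members in replicate 1 on a log axis, as counts per kilobase and 1000000 counts with 3 definitions of length, with 95% Poisson intervals of counting error. Id2 is highest with each length (48.4, 101 and 59.9), while Tcf4 (9.97, 16.5 and 31.8) lies below Id3 with all exonic bases and above it with the longest coding transcript.

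Of 26 class II bHLH genes, the partners of E-proteins, 2 reached 3 counts in replicate 1, which is 7.69% against 36.1% of protein-coding genes compared, and 0 did in replicate 2. Of the 26, 10 had an ambiguous ID, and the background leaves out such genes, so these shares are not of like sets. Hand1, Bhlha15 and Tcf23 had 60, 23 and 1 counts on ambiguous IDs alone in replicate 1. Those counted were Twist1 with 177 counts and Twist2 with 63, regulators of mesenchyme, and both had 0 counts in replicate 2. Per length, Twist1 had 71.7 FPKM (61.5 to 83.0) and Twist2 13.1 FPKM (10.1 to 16.7) in replicate 1. The oocyte partners Figla and Sohlh1 had 0 counts in both libraries and Sohlh2 had 1 count in replicate 1. Of 8 cofactors that bind E-proteins or their complexes, 4 reached 3 counts in replicate 1: the acetyltransferase genes Ep300 with 222 counts and Crebbp with 202, the corepressor gene Cbfa2t2 with 26 and Lmo4 with 10. None of the 8 reached 3 counts in replicate 2 on IDs of 1 gene, while Ldb1 had 6 there on an ID that could belong to several genes.

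Next were the signalling genes upstream of the Id genes. Of 10 BMP receptor and SMAD genes, 7 reached 3 counts in replicate 1 and 2 in replicate 2. Of the protein-coding genes compared, 36.1% and 4.21% did. Bmpr1b had 0 counts on IDs of 1 gene, but 271 in replicate 1 on IDs that could belong to several genes. The type II receptor gene Bmpr2 had 438 counts in replicate 1 against 2 in replicate 2, and the type I receptor gene Bmpr1a had 114 and 1. Smad1, which codes for a transducer of the BMP signal, had 76 and 0 counts, and the type I receptor gene Acvr1 had 63 and 1. In replicate 2, Acvr2b had 5 counts against 0 in replicate 1, and Smad5 had 4 against 26. Of 12 other BMP targets, 4 reached 3 counts in replicate 1 and 3 in replicate 2. Grem1, which codes for a secreted BMP antagonist, had 1425 counts in replicate 1 against 4 in replicate 2, the inhibitory Smad7 had 50 and 7, Msx1 had 6 and 0, and Runx2 had 4 and 0. The other targets were thus detected unevenly, and 7 of the 12 had 0 counts in replicate 1.

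Of the HMG-box genes that share the TCF name, 2 of 4 reached 3 counts in replicate 1 and 0 in replicate 2. Tcf7l1 had 28 counts in replicate 1, or 4.70 FPKM (3.13 to 6.80), and 0 in replicate 2. Tcf7l2 had 20 counts, or 1.502 FPKM (0.918 to 2.32), and 2 counts in replicate 2. The E-protein gene Tcf4, at 9.97 FPKM (9.03 to 11.0), was thus above Tcf7l2 beyond counting error in replicate 1. Replicate 2 gives no order, as Tcf7l2 had 2 counts there and Tcf4 had 1, both below 3 counts. The values were 18.3 FPKM (2.22 to 66.2) for Tcf7l2 and 2.94 (0.0743 to 16.4) for Tcf4, with overlapping intervals. Of 6 HES and HEY genes, bHLH repressors that do not need E-proteins, Hes1 reached 3 counts in replicate 1 with 4. Heyl had 10 counts and Hey1 3 in replicate 2, both with 0 in replicate 1.

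**Figure D4:**
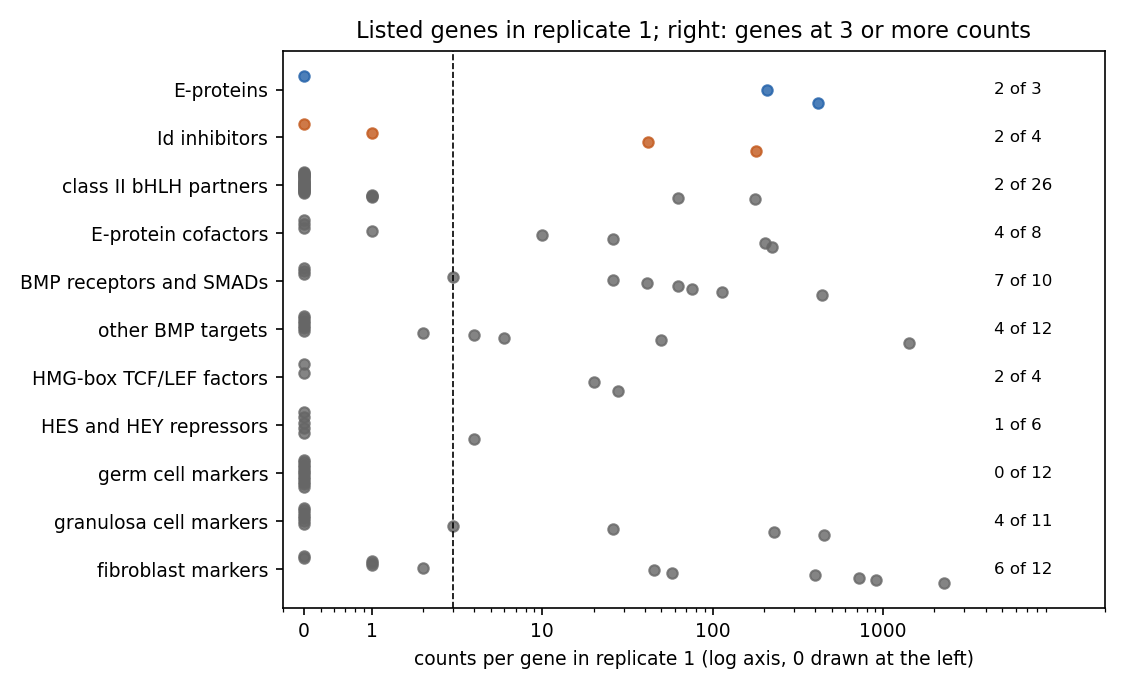
Counts per gene in replicate 1 on a log axis, with genes at 0 drawn at the left edge, for the E-proteins (blue), the Id inhibitors (orange) and the other lists (grey). The dashed line marks 3 counts, and the right column gives how many genes of each list reached it, from 0 of 12 germ cell markers to 7 of 10 BMP receptor and SMAD genes.

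The labelled cell type was checked against its markers. All 12 germ cell markers, Ddx4, Dazl, Pou5f1, Stra8 and Sycp3 among them, had 0 counts in both libraries on IDs of 1 gene. The only counts near Ifitm3, a marker used to sort FGSCs, were on IDs that could belong to several genes, with 10577 counts in replicate 1 and 6 in replicate 2, or 6972 and 482 CPM if all were its own. In all, 5 of the 12 germ cell markers had such an ID. Of 11 granulosa cell markers 4 reached 3 counts in replicate 1, with Kitl at 453 and Fst at 229, while Foxl2 and Amh were at 0. Of 12 fibroblast markers 6 did, with Dcn at 2281, Col1a2 at 910, Pdgfra at 726, Col1a1 at 401, Col3a1 at 58 and S100a4 at 45. The other fibroblast markers had 2 counts (Postn), 1 count (Vim, Fn1 and Thy1) or 0 (Lum and Pdgfrb). Summed over IDs of 1 gene, the germ cell markers had 0 CPM in both libraries, the granulosa cell markers 469 and 241 CPM, and the fibroblast markers 2917 and 1447 CPM. In replicate 1, Kitl and Fst held most of the 711 granulosa cell marker counts, and Dcn the largest part of the 4426 fibroblast marker counts. The sums of replicate 2 rest on 3 and 18 counts, and the limit of a 0 there is also 241 CPM. In replicate 2 the germ cell and granulosa cell sums are thus not told apart. On IDs of 1 gene, the germ cell markers listed thus do not show the labelled cell type, and a marker at 0 can have been transcribed. The libraries are called by their label. The part of granulosa cells and of feeder or other fibroblasts in the E-protein and Id counts was not tested, and in such libraries fewer cells of a type and less RNA per cell cannot be told apart.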

How the data were processed

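The 2 RNA-seq libraries of differentiated FGSCs form 1 group by their labels. Raw counts for 129311 IDs were deposited by the authors, unnormalized and not pooled. The submitters' processing notes name FastQC, Trim Galore, HISAT2 2.2.1, featureCounts and mm10, whereas the methods describe TopHat and Cufflinks. The gene annotation and any use of strand are not given in the sources used here.

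Counts of a gene were summed over its Ensembl transcript IDs (75192 of 76066 matched GENCODE M21 of GRCm38) and the protein accessions placed in that gene alone. Candidates for an accession were coding transcripts that start between its neighbours in the listing and are not listed themselves, narrowed by rank; 45304 of 53245 accessions had 1 candidate gene. Genes with an ambiguous ID were left out of the background, Id1 included. This placing is an inference and bears on every value that includes accessions. No test was run, since 1 group allows no comparison between groups.

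CPM used the total over all IDs, and FPKM the union of exons. Totals were 1517151 and 12442 counts, so the smallest level taken as shown, 3 counts, was 1.98 and 241 CPM. Named genes were all 7 members and, of each other list, up to 4 genes with at least 3 counts in replicate 1 and any with 3 in replicate 2; Figla, Sohlh1 and Sohlh2, and the markers, were named for their roles. The members and lists were chosen with earlier results of these data known. Alternatives were the IDs counted, the minimum, the length, the library total, TMM, pooling and each replicate left out; the longest coding transcript and the omission of retained-intron IDs were added after seeing the data. The placing of accessions, with genes that do not overlap, and the Poisson intervals were tested on simulated data. The other steps were not simulated. The software was R 4.3.3 with edgeR 4.0.16 for TMM, and Python 3.11.15 with scipy 1.17.1, pandas 2.3.3, numpy 2.4.6 and matplotlib 3.10.9. The other assays of the study were not analysed here.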

Additional observations from a re-analysis of the deposited data

Results flagged for a closer look

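Features near Tcf12 had counts although none overlaps its exons, and no comparison of the report used them. Inside the gene and on its strand, Gm38057 had 86 counts in replicate 1 and Gm37137 had 4 counts in replicate 2, both annotated as transcripts still to be tested by experiment. Gm37660, which has the same annotation and lies 952 bases outside the gene, had 26 counts in replicate 1. Rpl15-ps2, a processed pseudogene of a ribosomal protein gene inside Tcf12 on the opposite strand, had 138 counts in replicate 1. Each is above 3 counts, the upper limit taken here for a count of 0. The retained-intron transcripts of Tcf12 itself had 160 counts in replicate 1, and whether these features and Tcf12 share unspliced RNA was not tested.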

How the results depend on the processing

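The number of members with at least 3 counts in replicate 1 was 4 and became 2 with Ensembl transcript IDs only, a choice that leaves out every count of Id2, Id3 and Id4. In replicate 2 it was 0 and became 1 when 1 count was enough. The E-protein share of the summed FPKM in replicate 1, 22.7%, was 100% with Ensembl IDs only, 19.6% with the bases in 1 transcript only as length, 39.6% with the longest coding transcript, 14.1% without retained-intron IDs and 100% without replicate 1, a value that rests on 1 count. It was 22.7% both with ambiguous accessions added and with the libraries pooled. The 14.1% leaves out the counts of retained-intron IDs but keeps their bases in the length. TMM factors were 0.320 and 3.13, from 1895 genes with counts in both libraries, and raised every FPKM of replicate 1 by a common factor, Id2 from 48.4 to 151 and Tcf4 from 9.97 to 31.2, without moving their order. The same factors lower every level of replicate 2. The comparisons between libraries above use library totals only and were not repeated with TMM. For genes with the higher level in replicate 1, TMM would widen the gap. Where replicate 2 had the higher level, as for Smad7 with 7.29 and 124 FPKM, it would shift the levels the other way. With the mitochondrial IDs left out of the total, 11.9% of the counts of replicate 1, Tcf4 had 11.3 FPKM. The mean FPKM over both libraries was 6.45 for Tcf4, 4.41 for Tcf12, 24.2 for Id2 and 7.73 for Id3. Without replicate 1 it was 2.94 for Tcf4 and 0 for the others, and without replicate 2 it was 9.97, 8.83, 48.4 and 15.5. No paired analysis was possible because the labels give a single group. The depth of replicate 2 limits it to levels above 241 CPM.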
